A study of Mus musculus with 66 samples.

Results

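The 6 mature miRNAs described here are both arms of the hairpins of miR-126a, miR-143 and miR-145a, which were chosen by name from the 1826 miRNAs listed in plasma of C3H mice with and without hepatocellular carcinoma (HCC). A miRNA gene is transcribed as a hairpin, both arms of which (5p and 3p) can be released as mature miRNAs, and usually the arms are loaded unequally into the silencing complex. MiR-126 lies in an intron of Egfl7, a gene of the vascular endothelium, is the best known miRNA of endothelial cells, where it sustains VEGF signaling and vessel integrity, and is also present in platelets and blood progenitors. MiR-143 and miR-145 come from neighboring hairpins of a single gene cluster, are abundant in smooth muscle cells, pericytes and fibroblasts, and promote the contractile state of vascular smooth muscle. All 6 were listed above 0 in every mouse and passed the filter on low counts.

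The plasma came from male C3H mice, an inbred strain that also develops liver tumors without irradiation, bled by cardiac puncture at necropsy. The HCC group had 8 mice and the non-HCC group 5, and the labels place all 13 more than a year after radiation. The study counts 5 of the 8 HCC mice as spontaneous and the rest as radiation-induced, which differs from labels that give radiation for all. Which mice were irradiated is therefore not settled here. The labels do not say which HCC mouse is which, so that the 2 kinds of HCC cannot be told apart. Libraries carried molecular barcodes, and each value is a count of unique molecular indices (UMIs), with 9513136 to 14247488 miRNA UMIs per HCC mouse and 10467560 to 13962539 per non-HCC mouse. Plasma holds miRNAs from many tissues, so that fewer releasing cells and less RNA released per cell cannot be told apart.

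Of the 6 miRNAs only miR-126a-3p has a mature entry in the RefSeq table used here (GRCm38.p6). It is shown with its hairpin, to place the arms that the results below compare, and with both arms of miR-126b, which is annotated on the opposite strand of the same place and has to be counted apart from it. In the mature miRNAs the capitals mark the seed, bases 2 to 8, and in the hairpin they mark miR-126a-3p.
mmu-miR-126a-3p: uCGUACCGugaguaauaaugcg
mmu-miR-126b-5p: aUUAUUACucacgguacgaguu
mmu-miR-126b-3p: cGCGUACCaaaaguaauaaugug
Mir126a: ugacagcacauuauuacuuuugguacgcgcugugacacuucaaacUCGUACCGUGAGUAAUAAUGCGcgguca
The Mir126a hairpin spans chr2:26591357-26591429 on the plus strand and its 3p arm chr2:26591402-26591423. In GENCODE M21 it lies in Egfl7, in an intron of the protein-coding transcripts and in an exon of a transcript with a retained intron, and also within Gm20532. The Mir126b hairpin, chr2:26591363-26591420, is on the minus strand, and the reverse complement of miR-126b-5p shares a run of 19 bases with miR-126a-3p. The 3 mature sequences have 3 different seeds.

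The HCC libraries were not evenly different from each other. The closest 3 pairs, HCC mice 1 and 6, 2 and 5, and 3 and 7, had miRNA profiles far closer than the other pairs of HCC mice, with a chi-square per degree of freedom of 49.9 to 102 against 1296 to 14214 for the 25 other HCC pairs and 147 to 1774 for the 10 non-HCC pairs. They differed by more than sampling noise, but libraries from shared material could do so too, and whether each close pair is 2 mice is not settled. They were kept as separate mice, as labeled. Values with each close pair merged into 1 profile, which leaves 5 HCC profiles, are also given. Close pairs 2 and 5 and 3 and 7 also had similar spike-in counts, which differed by 0.08 and 0.10 on the log2 scale, whereas those of mice 1 and 6 differed by 0.95.

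Levels are log2 of the UMI count plus 1, divided by the mean count of the synthetic spike-ins UniSP2 and UniSP4 in the same mouse. Since that scale can move every miRNA of a mouse together, levels were also set by TMM, a scale that centers the bulk of the miRNAs. In the edgeR quasi-likelihood test of HCC against non-HCC mice over 1452 miRNAs, the median log2 fold change was 0.78 with the spike-in scale and 0.17 with TMM. With the spike-in scale 109 miRNAs were called higher in HCC (7.51%) and none lower (0%), with 3 lower at an unadjusted p under 0.05 and 2 called lower by DESeq2 with the same scale. With TMM 107 were called higher (7.37%) and 32 lower (2.2%). With the close pairs summed, 97 were called higher and 0 lower with the spike-in scale, with 1 lower at an unadjusted p under 0.05, and 91 higher and 8 lower with TMM. A call is a Benjamini-Hochberg adjusted p under 0.05 over all miRNAs tested.

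None of the 6 miRNAs was called by edgeR with either scale. With the spike-in scale 4 of them, the arms of miR-143 and miR-145a, were higher at an unadjusted p under 0.05. With TMM 3 had such a p, both arms of miR-145a, which were higher, and miR-126a-3p, which was lower (edgeR unadjusted p = 0.0360). Neither arm of miR-143 did with TMM (edgeR unadjusted p = 0.111 for 3p and 0.110 for 5p). An unadjusted p under 0.05 was reached by 19.5% of all miRNAs tested with the spike-in scale and 22% with TMM. DESeq2 called both arms of miR-145a higher, with the spike-in scale as for 12.3% of all miRNAs and with its own scale as for 10.7%. With the close pairs summed edgeR called none of the 6 with either scale, and 3 had an unadjusted p under 0.05 with the spike-in scale. What the data show most clearly is a difference in proportion. The balance of the arms of miR-126a was shifted towards 5p in HCC plasma, with a difference of -1.01 in the log2 ratio of 3p to 5p, while for the arms of miR-143 and miR-145a the difference was within the spread between mice. MiR-126a-3p was also less abundant relative to miR-143-3p and to miR-145a-5p in HCC plasma, although both of these differences missed the threshold with close pairs averaged (adjusted exact permutation p = 0.0635). The last 2 ratios share miR-126a-3p, and miR-143-3p and miR-145a-5p varied together (r = 0.89 over 8 HCC mice, TMM scale), so they are not separate results. A lower ratio can come from either of its 2 miRNAs. All ratios are formed within a library and need no scale.

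mmu-miR-126a-3p, the arm that carries most of the known endothelial function, was counted at 25473 UMIs in the lowest HCC mouse, 32542.5 at the median and 200094 in the highest, HCC mouse 4. The 5 non-HCC mice had 55578, 183148, 69238, 85474 and 77820 UMIs. Every HCC mouse except HCC mouse 4 was below all 5 non-HCC mice in UMIs. On the spike-in scale the levels were 15.43 ± 1.42 (SD, n = 8) in the HCC group and 16.09 ± 0.73 (SD, n = 5) in the non-HCC group, and 4 HCC mice were below, 3 within and 1 above the non-HCC range. The edgeR log2 fold change was -0.14 (SE 0.67, edgeR adjusted p = 0.963), and the difference of the mean levels was -0.67 (exact two-sided permutation p = 0.352 over the 1287 splits of the mice). On the TMM scale 7 of 8 HCC mice were below all non-HCC mice, a pattern that 3.86% of all miRNAs tested had. There the edgeR log2 fold change was -0.97 (SE 0.42, edgeR adjusted p = 0.183) and the difference of mean levels was -1.13 (exact permutation p = 0.0272), or -0.96 with close pairs averaged (exact permutation p = 0.111 over 252 splits). With close pairs summed, the edgeR fold change on the spike-in scale turned to 0.11 (edgeR adjusted p = 0.963).

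mmu-miR-126a-5p, the partner arm, was counted at 11920 UMIs in the lowest HCC mouse, 17938.5 at the median and 96296 in HCC mouse 4. The 5 non-HCC mice had 21092, 36161, 16405, 26739 and 19988 UMIs, so that the groups overlapped. Its level on the spike-in scale was 14.55 ± 1.19 (SD, n = 8) in the HCC group and 14.20 ± 0.50 (SD, n = 5) in the non-HCC group, with an edgeR log2 fold change of 0.78 (SE 0.64, edgeR adjusted p = 0.607), close to the median of all miRNAs. It was 0.12 without HCC mouse 4 and 1.04 with close pairs summed. The difference of mean levels was 0.34 with the spike-in scale and -0.12 with TMM (exact permutation p = 0.597 and 0.796). With TMM the edgeR log2 fold change was 0.08, and the difference of mean levels with close pairs averaged was 0.07.

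**Figure D1:**
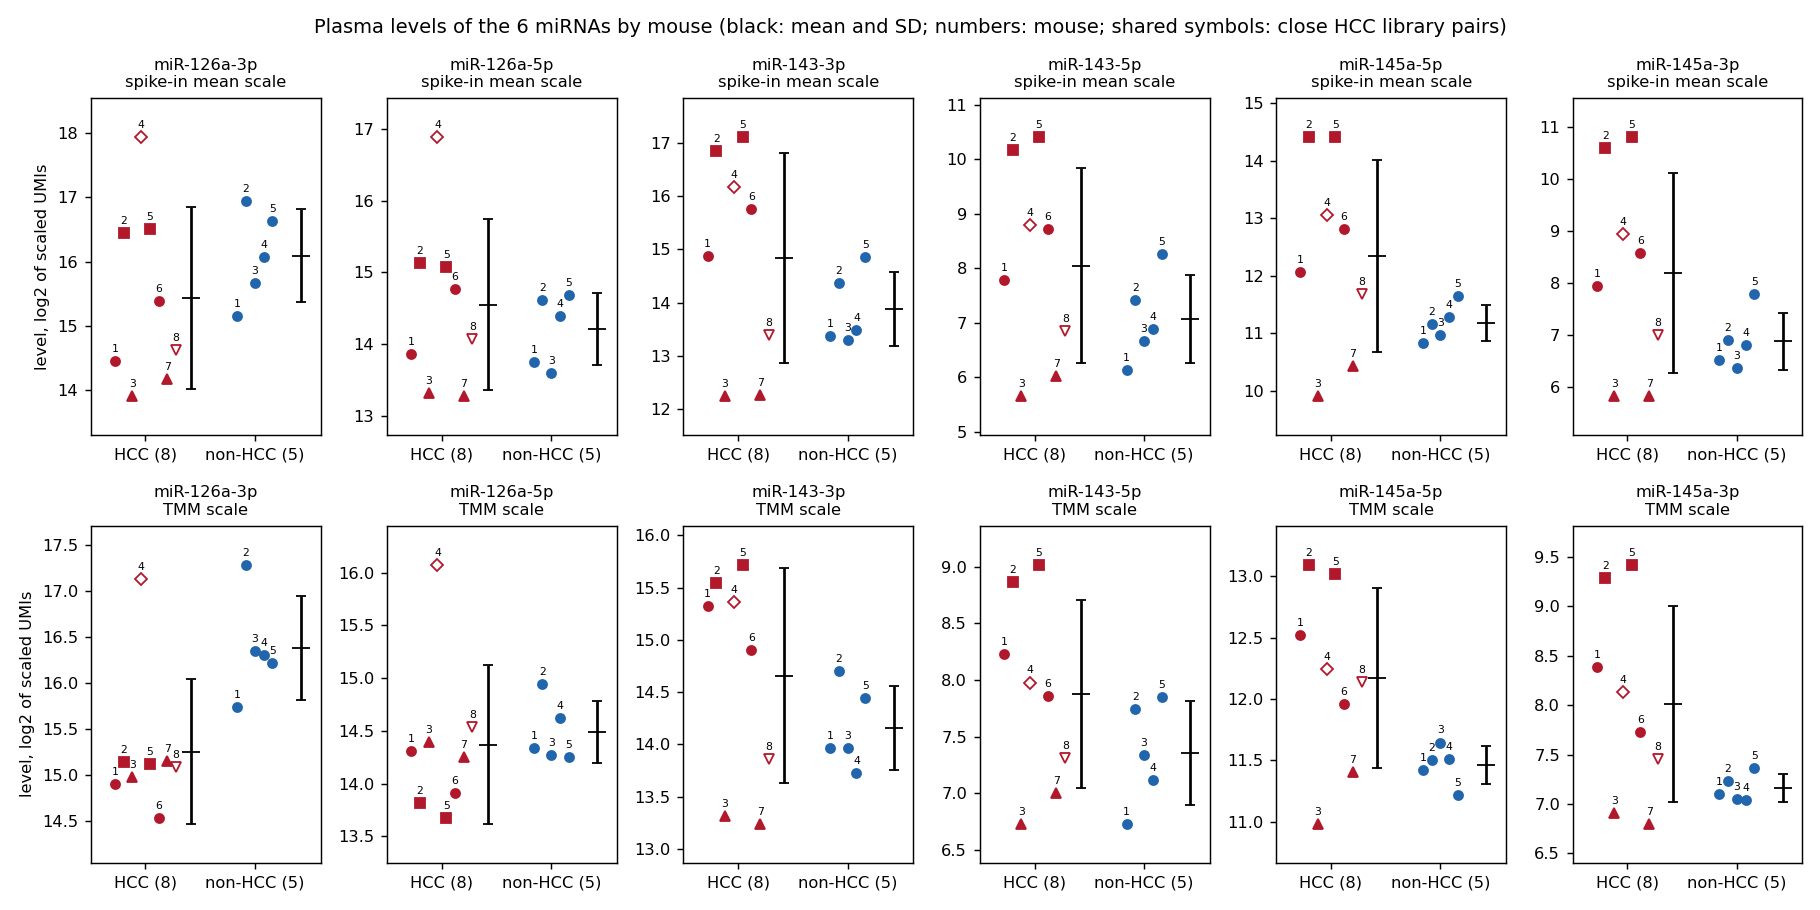
Levels of the 6 miRNAs in each mouse, as log2 of scaled UMIs on the vertical axes, with the spike-in scale in the upper and the TMM scale in the lower row. Red symbols are the 8 HCC mice, with shared filled symbols for close library pairs, blue circles are the 5 non-HCC mice, numbers are mouse numbers, and black bars are means with SD. HCC mice spread more widely than non-HCC mice in all 6 miRNAs on the spike-in scale, and on the TMM scale HCC mouse 4 is the only HCC mouse within the non-HCC range of miR-126a-3p.

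The arm ratio of miR-126a, the UMIs of 3p over those of 5p, was 1.47 in the lowest HCC mouse, 1.69 at the median and 2.71 in the highest. In the 5 non-HCC mice it was 2.63, 5.06, 4.22, 3.20 and 3.89. MiR-126a-3p was the more abundant arm in all 13 mice, and 7 of 8 HCC mice were below all non-HCC mice, with HCC mouse 5 as the exception. The mean log2 ratio was 0.88 ± 0.36 (SD, n = 8) in the HCC group and 1.89 ± 0.36 (SD, n = 5) in the non-HCC group, a difference of -1.01 (exact two-sided permutation p = 0.00233, adjusted p = 0.0140 over the 6 ratios computed). With close pairs averaged all 5 HCC profiles were below all non-HCC mice, and the difference was -1.03. That separation was narrow for the pair of HCC mice 2 and 5. Their log2 ratios were 1.32 and 1.44, beside 1.40 in non-HCC mouse 1. The exact permutation p with close pairs averaged was 0.00794, the smallest that 252 splits can give. Adjusted over the 6 ratios, that exact permutation p was 0.0476, just under the threshold.

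The same exact test was run for every hairpin with both arms at 10 or more UMIs in all mice. Of 161 such hairpins, 15 had a lower ratio of 3p to 5p in HCC at an adjusted p under 0.05 (9.32%) and 19 a higher one, and 13 (8.07%) had at least 7 of 8 HCC mice below all non-HCC mice. MiR-126a was among the 15, with an adjusted exact permutation p of 0.0179 over the 161 hairpins, and its difference was the 12th lowest of all. That adjusted p is for the 8 separate HCC mice. With close pairs averaged, 21 of the hairpins with a lower ratio had an unadjusted exact permutation p under 0.05. The unadjusted exact permutation p of miR-126a was then 0.00794, the smallest possible, which other hairpins such as miR-185, miR-203 and miR-361 shared. None was adjusted over the hairpins there, so it is not shown that miR-126a passes the threshold over all hairpins with pairs averaged. The median difference over the 161 was 0.15. A shift of arm balance between these groups was thus not particular to miR-126a.

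**Figure D2:**
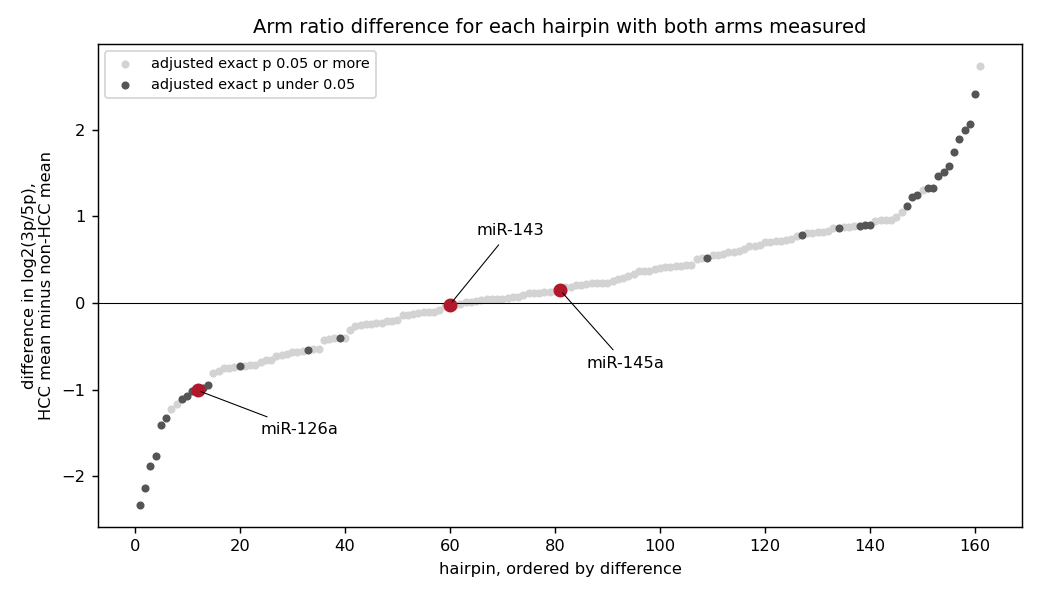
Difference between HCC and non-HCC mice in the mean log2 ratio of the 3p to the 5p arm (vertical axis) for each of 161 hairpins, ordered by the difference (horizontal axis). Dark points have an adjusted exact permutation p under 0.05, and red points mark miR-126a at -1.01, miR-143 at -0.02 and miR-145a at 0.15.

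Markers of other blood sources are given beside this shift. The list of platelet and leukocyte miRNAs (miR-150-5p, miR-223-3p and both arms of miR-142a) made up 0.995 to 1.66% of the miRNA UMIs in HCC and 2.09 to 4.35% in non-HCC mice. The liver list made up 4.14 to 51.8% in HCC and 0.908 to 1.15% in non-HCC mice, and a larger share of 1 list lowers the shares of the others. In edgeR 0 of the 4 platelet and leukocyte miRNAs were called with the spike-in scale. With TMM 4 of 4 were called lower, beside 2.2% of all miRNAs tested. Their median log2 fold change was -1.16 with the spike-in scale and -1.76 with TMM. The list of red cell miRNAs made up 6.69 to 39.5% in HCC and 36.5 to 38.9% in non-HCC mice, with 0 of 6 called with either scale. None of the 10 entries was at 0 in all mice. The part of these sources in the shift of miR-126a was not tested.

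The genes of miR-143 and miR-145a lie on chromosome 18 in GENCODE M21, on the minus strand, Mir145a at chr18:61647825-61647894 and Mir143 at chr18:61649196-61649258, with 1301 bases between them. Neither overlaps another annotated gene. The noncoding RNA gene Carmn lies 366 bases from Mir143 and the noncoding RNA gene Bvht 352 bases from Mir145a.

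mmu-miR-143-3p, the most abundant arm of the cluster, was counted at 8841 UMIs in the lowest HCC mouse, 33877.5 at the median and 58683 in the highest. The 5 non-HCC mice had 16272, 30623, 13269, 14301 and 22737 UMIs. HCC mice fell on both sides of the non-HCC range. HCC mice 1, 2, 4, 5 and 6 were above it on the spike-in scale, HCC mice 3 and 7 were below it, and HCC mouse 8 was within it. The level was 14.83 ± 1.98 (SD, n = 8) in the HCC group and 13.88 ± 0.70 (SD, n = 5) in the non-HCC group. The edgeR log2 fold change was 1.73 (SE 0.78, edgeR adjusted p = 0.225), and the difference of mean levels was 0.96 (exact permutation p = 0.315). With TMM the edgeR log2 fold change was 0.73 (SE 0.43, edgeR adjusted p = 0.364), and with close pairs summed it was 1.64 on the spike-in scale (edgeR adjusted p = 0.245).

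mmu-miR-145a-5p, the main arm of its hairpin, was counted at 1753 UMIs in the lowest HCC mouse, 4837.0 at the median and 7985 in the highest. The 5 non-HCC mice had 2792, 3322, 2659, 3096 and 2437 UMIs, a narrow range. On the spike-in scale 6 of 8 HCC mice were above all non-HCC mice and HCC mice 3 and 7 were below all of them. The level was 12.35 ± 1.67 (SD, n = 8) in the HCC group and 11.18 ± 0.31 (SD, n = 5) in the non-HCC group. The edgeR log2 fold change was 1.87 (SE 0.73, edgeR adjusted p = 0.135) and the difference of mean levels was 1.17 (exact permutation p = 0.159). With TMM the edgeR log2 fold change was 0.86 (SE 0.34, edgeR adjusted p = 0.127), and with close pairs summed it was 1.76 on the spike-in scale (edgeR adjusted p = 0.167).

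The minor arms were counted at a small share of their partners. mmu-miR-143-5p had 91 to 472 UMIs in HCC and 107 to 245 in non-HCC mice, and its edgeR log2 fold change was 1.64 (SE 0.78, edgeR adjusted p = 0.247). mmu-miR-145a-3p had 103 to 626 UMIs in HCC and 109 to 172 in non-HCC mice, and its edgeR log2 fold change was 2.24 (SE 0.83, edgeR adjusted p = 0.112). With TMM these were 0.67 (edgeR adjusted p = 0.364) and 1.15 (edgeR adjusted p = 0.117), and with close pairs summed on the spike-in scale 1.496 (edgeR adjusted p = 0.296) and 2.09 (edgeR adjusted p = 0.133). At least 5 of 8 HCC mice were above all non-HCC mice for 3 of the 4 arms of miR-143 and miR-145a on the spike-in scale and for 4 of the 4 on the TMM scale, beside 23.2% and 19.4% of all miRNAs tested. DESeq2 called both arms of miR-145a higher, with adjusted p of 0.0349 for 5p and 0.0263 for 3p with the spike-in scale, and limma called neither.

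The levels spread widely within the HCC group. From the lowest to the highest HCC mouse the levels covered 4.88 on the log2 scale for miR-143-3p, 4.51 for miR-145a-5p and 4.04 for miR-126a-3p, against 1.58, 0.81 and 1.80 among non-HCC mice. The spike-in scale itself ranged from 0.347 to 1.96 among HCC mice, and on the TMM scale the SD of the miR-143-3p level in the HCC group was 1.03 in place of 1.98.

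Within the cluster no difference of proportion was detected. The mean log2 ratio of miR-143-3p over 5p was 6.78 ± 0.37 (SD, n = 8) in the HCC group and 6.81 ± 0.28 (SD, n = 5) in the non-HCC group (difference -0.02, exact permutation p = 0.915). The log2 ratio of miR-145a-5p to 3p was 4.15 ± 0.37 (SD, n = 8) and 4.30 ± 0.28 (SD, n = 5), which differed by -0.15 (exact permutation p = 0.455). The log2 ratio of miR-143-3p to miR-145a-5p, from both hairpins of the cluster, was 2.49 ± 0.51 (SD, n = 8) and 2.70 ± 0.48 (SD, n = 5), which differed by -0.21 (exact permutation p = 0.465). These 3 differences were within the spread between mice, and with close pairs averaged they were 0.016, -0.099 and -0.23.

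MiR-126a-3p relative to miR-143-3p was 0.656 in the lowest HCC mouse, 1.34 at the median and 3.75 in the highest, and 3.42, 5.98, 5.22, 5.98 and 3.42 in the 5 non-HCC mice. Only in HCC mice 1, 2, 5 and 6 did miR-143-3p exceed miR-126a-3p. The mean log2 ratio was 0.59 ± 1.14 (SD, n = 8) in the HCC group and 2.22 ± 0.41 (SD, n = 5) in the non-HCC group, which differed by -1.63 (exact permutation p = 0.0109, adjusted p = 0.0218 over the 6 ratios), with 7 of 8 HCC mice below all non-HCC mice, of which HCC mouse 4 was so by less than 0.01. With close pairs averaged the difference was -1.44 (adjusted exact permutation p = 0.0635).

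MiR-126a-3p relative to miR-145a-5p was 4.10 in the lowest HCC mouse, 6.75 at the median and 29.6 in the highest, and 19.9, 55.1, 26.03, 27.6 and 31.9 in the 5 non-HCC mice. All HCC mice but HCC mouse 4 were below all non-HCC mice. The difference of the mean log2 ratios was -1.84 (exact permutation p = 0.00622, adjusted p = 0.0186 over the 6 ratios), and -1.67 with close pairs averaged (adjusted exact permutation p = 0.0635). Neither of these 2 ratios therefore held past the threshold once the close pairs were merged. How many other pairs of miRNAs separate the groups as far was not counted for either ratio.

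**Figure D3:**
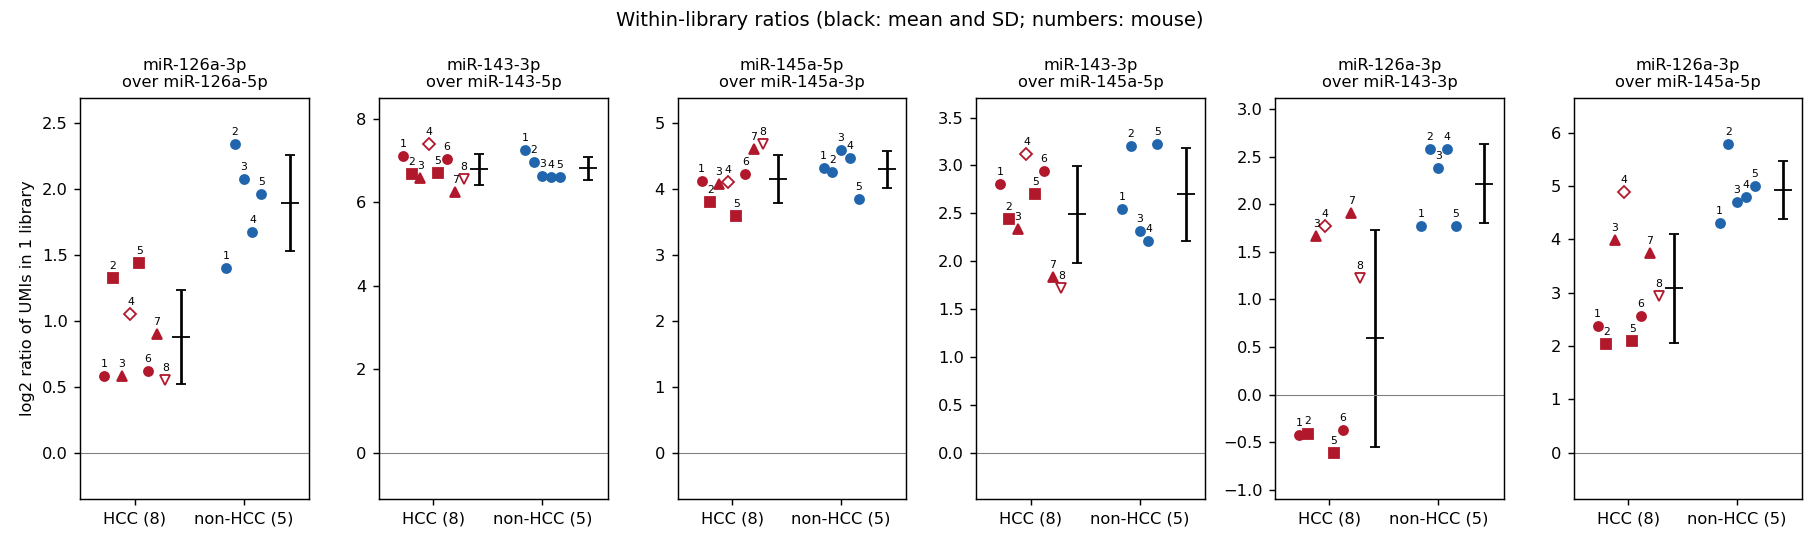
The 6 within-library ratios in each mouse, as log2 of the UMIs of the first over the second miRNA (vertical axes), with symbols as in the plot of levels and black bars for means with SD. The ratio of the arms of miR-126a and the 2 ratios of miR-126a-3p to the cluster are lower in 7 of 8 HCC mice than in all non-HCC mice, and the other 3 ratios overlap.

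Among the HCC mice the members of the cluster varied together and miR-126a-3p varied apart from them. Since the close pairs leave 5 distinct HCC profiles, correlations are given as descriptions with no p. On the TMM scale over 8 HCC mice, Pearson's r was 0.94 between the arms of miR-143, 0.95 between those of miR-145a and 0.89 between miR-143-3p and miR-145a-5p, with Spearman's rho of 0.95, 0.93 and 0.90. Over the 5 profiles r was 0.94, 0.96 and 0.86. Without the 2 mice farthest from the median, r of miR-143-3p with miR-145a-5p was 0.68. MiR-126a-3p had an r of 0.23 with miR-143-3p and 0.086 with miR-145a-5p. Its r with miR-126a-5p was 0.89 but rho was 0.14, and without HCC mouse 4 r was 0.088, so that it rests on that mouse. The rho of the arms of miR-126a was 0.83 with total UMIs as the scale and 0.95 with the spike-in scale. With total UMIs rho was 0.79 for the arms of miR-143, 0.88 for those of miR-145a and 0.57 for miR-143-3p with miR-145a-5p. There rho of miR-126a-3p was -0.095 with miR-143-3p and -0.38 with miR-145a-5p. On the spike-in scale all 6 values of r lay between 0.79 and 0.99, where the scale shared by all miRNAs of a library adds to each.

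For 3 of the members the miRNAs with the most similar course over the mice were sought among 698 others, by r of the TMM levels as deviations from the group means over 13 mice. For miR-126a-3p these were miR-204-5p (r = 0.93), miR-126b-5p (0.88) and miR-126a-5p (0.86). For miR-143-3p they were miR-194-1-3p (0.96), miR-29c-5p (0.93) and miR-192-5p (0.93). For miR-145a-5p they were miR-455-5p (0.95), miR-122-3p (0.94) and miR-192-3p (0.93). MiR-122, miR-192 and miR-194 are miRNAs abundant in hepatocytes, and edgeR called miR-192-5p, miR-192-3p, miR-122-3p and miR-455-5p higher in HCC, with log2 fold changes of 4.51, 4.16, 6.72 and 4.19 (edgeR adjusted p = 0.00566, 0.0125, 0.00566 and 0.0241). It did not call miR-194-1-3p (1.89, edgeR adjusted p = 0.288), miR-29c-5p (1.503, edgeR adjusted p = 0.233) or the 3 nearest of miR-126a-3p.

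The same course was described for lists of miRNAs of other sources. The 5 liver miRNAs had a median r of 0.84 with miR-143-3p, 0.88 with miR-143-5p, 0.84 with miR-145a-5p and 0.87 with miR-145a-3p, and of -0.17 and -0.38 with miR-126a-3p and miR-126a-5p, beside 0.02 to 0.06 over all miRNAs compared. Among the HCC mice alone the median r of miR-143-3p with the liver list was 0.86, and among the 5 non-HCC mice 0.52. With miR-145a-5p they were 0.87 and 0.06. With close pairs averaged, the median r of the liver list was 0.75 with miR-143-3p and 0.83 with miR-145a-5p. In edgeR 4 of the 5 liver miRNAs were called higher in HCC with either scale. The 10 fibroblast and stellate cell miRNAs had a median r of 0.78 with miR-143-3p and 0.70 with miR-145a-5p, against 0.32 with miR-126a-3p. With close pairs averaged these were 0.68, 0.58 and 0.38. The HCC mice alone gave 0.89 with miR-143-3p and 0.81 with miR-145a-5p. The 5 non-HCC mice alone gave 0.00044 with miR-143-3p and 0.39 with miR-145a-5p. Only miR-29c-3p of that list was called higher, with a log2 fold change of 3.08 (SE 0.80, edgeR adjusted p = 0.0202). Of the 10 other vascular miRNAs edgeR called 0 with the spike-in scale and 1 with TMM, miR-27b-3p, and their median r was between 0.17 and 0.23 with all 6 members. They went both ways with miR-143-3p, from -0.82 for miR-92a-3p to 0.84 for miR-27b-3p, with 6 of 10 above 0.

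In 2 mice high miR-126a-3p and high muscle miRNAs came together. The 5 miRNAs of skeletal and heart muscle, none of which was called with either scale, had a median r of 0.74 with miR-126a-3p and 0.58 with miR-126a-5p, and of 0.01 to 0.14 with the arms of miR-143 and miR-145a, with which they went both ways (0.72 for miR-206-3p and -0.73 for miR-208b-3p with miR-145a-5p). HCC mouse 4 and non-HCC mouse 2 had the highest miR-126a-3p level of their groups and the highest share of muscle miRNAs, 1.47% and 0.368% of the miRNA UMIs. Without these 2 mice the median r of the muscle list was 0.27 with miR-126a-3p and -0.039 with miR-126a-5p. The r of miR-204-5p with miR-126a-3p was then 0.32, and the median r of the liver list with miR-143-3p was 0.94. The arm ratio of miR-126a still differed without them, by -0.92 (adjusted exact permutation p = 0.0273 over the 6 ratios).

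**Figure D4:**
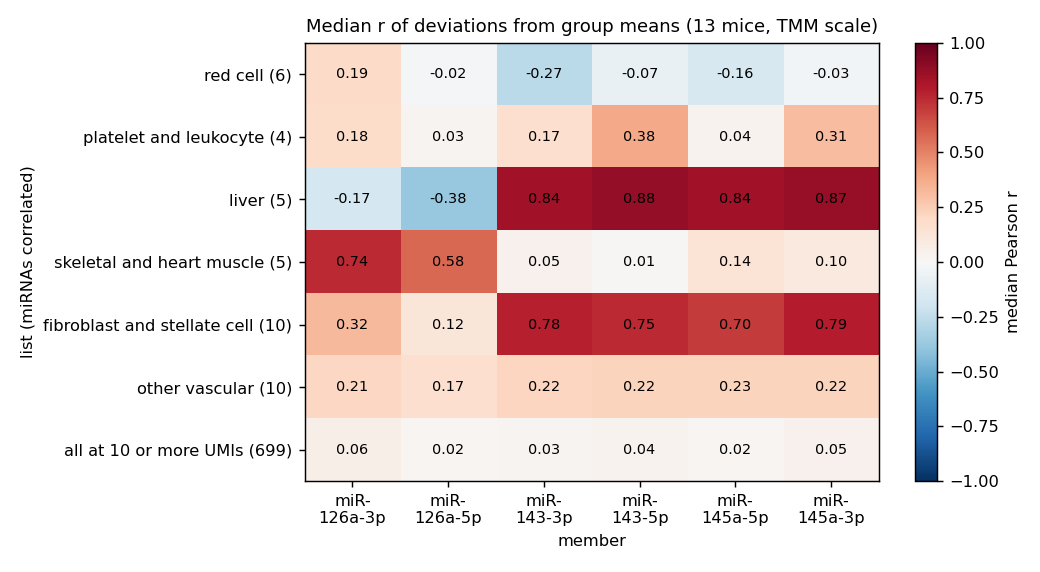
Median Pearson r of each of the 6 miRNAs (horizontal axis) with the miRNAs of 6 lists and with all miRNAs at 10 or more UMIs (vertical axis, number of miRNAs in brackets), over the 13 mice as deviations from group means on the TMM scale. The arms of miR-143 and miR-145a are at 0.70 or higher with the liver and the fibroblast and stellate cell lists, and the arms of miR-126a are at 0.74 and 0.58 with the muscle list.

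The near namesakes were counted at a low share of their partners. MiR-126b-3p was counted at 11.8 to 17.8% of the UMIs of miR-126a-5p and miR-126b-5p at 0.592 to 1.21% of those of miR-126a-3p, and the difference of neither share between the groups exceeded its spread (p = 0.530 and 0.780, exact permutation test). The mean log2 ratio of 3p over 5p of miR-126b was 3.12 in HCC and 2.23 in non-HCC mice. The difference was 0.89 (adjusted exact permutation p = 0.0139 over the 161 hairpins). Its sign is opposite to that of miR-126a, and the arms are named by strand. MiR-126b-3p lies opposite the 5p side of the Mir126a hairpin and miR-126b-5p opposite miR-126a-3p. No difference of either share was detected between the groups, and whether the shift of miR-126b is separate from that of miR-126a was not tested. MiR-126b-3p had an r of 0.97 with miR-126a-5p. How reads from the opposite strands were assigned is not given in the sources used here. MiR-145b, at 19 to 79 UMIs, was not called with the spike-in scale (log2 fold change 1.99, edgeR adjusted p = 0.0644). With TMM it was higher in HCC (log2 fold change 1.13, SE 0.29, edgeR adjusted p = 0.0250), with 8 of 8 HCC mice above all non-HCC mice, as for 3.72% of all miRNAs tested.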

How the data were processed

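Barcoded small RNA libraries had been prepared from plasma of 13 C3H males (8 HCC and 5 non-HCC mice). Reads were mapped by the authors to GRCm38 with miRBase annotation, and the deposited values are UMI counts for each miRNA in each mouse, not normalized. The submitters' processing notes name Bowtie2 and FastQC. No count between 0 and 10 is listed, and an entry of 0 may hold up to 9 UMIs. Groups and mouse numbers come from the labels. A second table for F2 mice holds 53 columns whose names match no label, and these were not used.

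The UMI counts were compared by edgeR 4.0.16 (quasi-likelihood, R 4.3.3) after removal of miRNAs that did not reach 5 UMIs in 5 or more mice, with the mean of both spike-ins as library scale, as in the study. The SE is the log2 fold change over the square root of F. Ratios and levels, with 1 UMI added, were tested by two-sided exact permutation over the mice, with Benjamini-Hochberg adjustment (numpy 2.4.6, pandas 2.3.3, Python 3.11.15). The tests were checked on simulated data. Alternatives were TMM, total UMIs, each spike-in alone, limma 3.58.1, DESeq2 1.42.0, other filters, a replicate block and each mouse left out. Merging close library pairs, leaving out HCC mouse 4 with non-HCC mouse 2, and the test of all hairpin arms were added after seeing the data.

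The miRNAs named are the 6 members, their namesakes, the 3 miRNAs most correlated with each main arm and 6 lists of source miRNAs. All were chosen with earlier results of these data known. Nothing but the labels says that the mice are independent, so p-values measure the spread between these samples. For the main arms, with high counts, the spread between mice exceeds the counting error, while for miR-145b and the minor arms the counting error adds to it.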

Additional observations from a re-analysis of the deposited data

How the results depend on the processing

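No member was called by edgeR with any of the other scales or filters, or by limma with 1 or 10 UMIs added. UniSP2 had 165794 to 938898 UMIs per mouse and UniSP4 225 to 1008. The mean of both is therefore nearly UniSP2, and UniSP2 alone is no separate check. DESeq2 called miR-145a-5p with its own (log2 fold change 0.91) and spike-in size factors (1.87), and miR-145a-3p with both (1.20 and 2.24). The replicate block called miR-145a-3p (2.02, edgeR adjusted p = 0.0348). Mice with the same number showed little joint deviation (r -0.05 to 0.21, 1 of 5 mice best with its own number). With 5 numbers this cannot settle whether the numbers pair the mice. MiR-145a-3p was also called without HCC mouse 3, within 1.74 to 2.55 as each mouse was left out. MiR-126a-3p lay between -0.82 and 0.11 then, above 0 without HCC mouse 3, HCC mouse 7 or non-HCC mouse 2, and at 0.11 with close pairs summed. The calls over all miRNAs, 109, were 44 and 40 by limma, 217 and 181 by DESeq2, and 44 to 157 with 1 mouse left out, least without non-HCC mice 1 to 4 or HCC mouse 2.

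The arm ratio of miR-126a stayed past the threshold without each mouse (-1.13 to -0.90). That of miR-143 was -0.11 to 0.087 and 0.016 with close pairs averaged, on both sides of 0. MiR-126a-3p over miR-143-3p (-1.81 to -1.45) missed it without HCC mouse 1, 2, 5 or 6 or non-HCC mouse 2 or 4 (highest adjusted exact p = 0.0606), and over miR-145a-5p (-2.09 to -1.62) without non-HCC mouse 2 (0.0545). With close pairs averaged these were -1.44 and -1.67. The other ratios kept direction and call.

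Leaving out each HCC mouse gave r of 0.088 to 0.94 for the arms of miR-126a, 0.92 to 0.97 for those of miR-143, 0.94 to 0.98 for those of miR-145a, 0.84 to 0.93 for miR-143-3p with miR-145a-5p, -0.15 to 0.29 for miR-126a-3p with miR-143-3p and -0.0074 to 0.18 with miR-145a-5p. In that order, with the spike-in scale r was 0.98, 0.99, 0.99, 0.98, 0.82 and 0.79. Total UMIs moved the arms of miR-145a to 0.91 and miR-126a-3p with miR-145a-5p to 0.20, and averaged pairs miR-143-3p with miR-145a-5p to 0.86. The causes were not tested. The spike-in alternative for F2 columns was not run.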
